A study of Mus musculus with 2 samples.

Results

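Granzymes are the serine proteases that cytotoxic lymphocytes store in granules, and perforin is the pore-forming protein that lets them reach the cytosol of a target cell. The genes described here are Gzma, Gzmb, Gzmc, Gzmd, Gzme, Gzmf, Gzmg, Gzmk and Prf1, 9 of the 32589 genes in the deposited tables, found by symbol. Their transcripts were counted in single leukocytes of MC38 tumours, tumours of a mouse colon carcinoma line, collected at day 19 after inoculation. One library came from the BiDT-treated group and 1 from the control group, Ctrl. For each, live CD45+ cells of 5 biological replicates were sorted by flow cytometry and pooled before the library was made, and the labels place both libraries in batch 1. The labels do not spell out BiDT, and the series title speaks of an antibody against TIM3 fused to an interferon. The mouse strain, the dose and what the Ctrl animals received are not given in the sources used here. With 1 library per group there is no test and no replicate check for any difference below, and every interval covers counting error only.

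In killing, perforin opens the way and the granzymes cleave proteins inside the target. Granzyme B cuts caspases, granzyme A is a tryptase, and granzyme K is a tryptase typical of a memory-like subset of CD8 T cells. Granzymes C to G are encoded next to Gzmb in rodents, are found in strongly activated mouse NK and CD8 T cells, and have no counterparts of the same names in people. Granzyme B also occurs in regulatory T cells (Treg), and resting mouse NK cells are known to hold transcripts of Gzmb and Prf1 ahead of the proteins.

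Promoter sequences are shown because the genes Gzmc to Gzmg are near copies of each other and were each highest in the NK gate. In NK cells each was lower in BiDT, whereas Gzmb next to them was higher. Gzmb was also higher in BiDT CD8 T and gamma delta T cells, but so was Gzmc there, and Gzmf in CD8 T cells. RefSeq promoters (250 bases before to 50 after the start, build GRCm38.p6) were matched by symbol for 9 of 9 genes. Those of Gzmc to Gzmg were 74.6% to 93.4% identical in 10 pairwise alignments, and the 26 pairs that include any other member were 44.8% to 53.2% identical. A stretch of 60 bases before the start differs between any pair of the 5 neighbours by 1 to 3 bases. The stretches are aligned on shared bases, and their last base lies between -36 (Gzmf) and -11 (Gzmc) relative to the start. All lie on the minus strand of chromosome 14, and the sequences read 5′ to 3′ along the gene. In capitals is 1 octamer, at the same place within each stretch.
Gzmc, chr14:56234668-56234727: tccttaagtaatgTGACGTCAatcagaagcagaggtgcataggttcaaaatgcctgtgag
Gzmf, chr14:56211443-56211502: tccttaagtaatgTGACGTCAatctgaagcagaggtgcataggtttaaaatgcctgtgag
Gzmg, chr14:56159610-56159669: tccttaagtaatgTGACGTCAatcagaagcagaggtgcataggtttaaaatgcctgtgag
Gzmd, chr14:56132608-56132667: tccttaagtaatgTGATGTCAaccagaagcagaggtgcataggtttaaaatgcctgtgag
Gzme, chr14:56120641-56120700: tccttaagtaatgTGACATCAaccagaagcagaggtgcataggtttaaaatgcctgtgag

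The capitals mark TGACGTCA, the letters of the cyclic AMP response element, which reads the same on both strands. Gzmc, Gzmf and Gzmg hold it whole, as do 1.79% of 32851 promoters of the same length. Counting from 1 at the 5′ end of the octamer, with the base of Gzmc first, Gzmd carries C4T and Gzme carries G5A. The hexamer TGTGGT, the letters of a RUNX site, was searched on both strands and does not overlap the octamer. It was present in the promoters of 8 of the 9 genes, all but Gzmk, and in 16.8% of all promoters. Gzmc to Gzmg are near copies, so these 8 are not independent. Other letter patterns were searched too. A shorter form of the octamer was in Gzmb, Gzmc, Gzmf, Gzmg and Prf1 (7.51% of all promoters). An ETS factor pattern was in Gzmc to Gzmg and Prf1 (35.4%). AP1 and STAT (GAS-like) patterns were in Gzmb alone (7.81% and 8.3%). An interferon response (ISRE-like) pattern was in Gzma alone (3.44%). In Gzmb the RUNX hexamer occurs at 2 places in the 100 bases before the start, given next on the same build and strand with the hexamers in capitals. A match of letters is a description and not a shown binding site.
Gzmb, chr14:56262335-56262434: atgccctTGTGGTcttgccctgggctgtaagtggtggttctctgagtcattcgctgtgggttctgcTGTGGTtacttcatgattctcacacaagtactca

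The BiDT library held 34996 cell barcodes with 130313537 UMIs (unique molecular identifiers, each standing for 1 captured transcript), and the Ctrl library 34310 barcodes with 211047063 UMIs. Filters left 31691 BiDT cells and 30439 Ctrl cells, at median depths of 2618 and 4173 UMIs, and 713 barcodes occurred in both libraries. Cells were classed by marker gates that use no granzyme. The NK gate held 2359 BiDT and 776 Ctrl cells, the CD8 T gate 2988 and 1876, the CD4 T gate without Foxp3 186 and 208, the Treg gate 105 and 225, and the gamma delta T gate 108 and 141. No cell fell into more than 1 gate. Levels are given as CPM, the counts of a gate scaled to a common total. Levels of different genes are set side by side without a length correction, which holds only if the libraries were made by the 3′ workflow that the label protocols describe. The form of the barcodes leaves that workflow uncertain. Most markers that the gates did not use went with the names, but not all. Eomes, a transcription factor of NK cells, held 177 CPM in BiDT and 124 CPM in Ctrl NK cells, against 2.99 and 0.476 CPM in the macrophage or monocyte gate. Tyrobp, an adaptor that NK cells share with myeloid cells, held 605 CPM in BiDT and 968 CPM in Ctrl NK cells, below the 841 and 1055 CPM of the macrophage or monocyte gate. The 5 NK markers that the gate did not use summed to 1276 CPM in BiDT and 1540 CPM in Ctrl NK cells, against 897 and 1075 CPM in the macrophage or monocyte gate. Markers of Treg other than Foxp3 summed to 5017 CPM in BiDT and 5358 CPM in Ctrl Treg. In the CD4 T gate the same markers still summed to 2580 CPM in BiDT and 2381 CPM in Ctrl. Whether that gate holds Treg without a Foxp3 UMI was not tested. T cell receptor and related genes summed to at least 1163 CPM in every T gate. T cell genes also reached 793 CPM in BiDT and 813 CPM in Ctrl cells of the NK gate. Macrophage markers summed to 351 to 531 CPM in BiDT and 466 to 752 CPM in Ctrl lymphoid gates, against 10791 and 11853 CPM in the macrophage or monocyte gate.

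Macrophages and monocytes served as the measure of free RNA, since they should lack these genes. The 9 genes summed to 376 CPM in that gate in BiDT and to 66.8 CPM in Ctrl, so that the background was higher in BiDT. In the NK, CD8 T and gamma delta T gates every member with a UMI stood at 2.19 times its level or more in both libraries. In BiDT CD4 T cells 5 members lay under 2 times the level of the macrophage or monocyte gate (Gzma, Gzmc, Gzmf, Gzmg and Prf1), in BiDT Treg 4 did (Gzmc, Gzmd, Gzmf and Gzmg), and in Ctrl Treg 4 (Gzma, Gzmd, Gzmf and Gzmg). A level near that background is not read as expression below. The 5 lymphoid gates did not hold all of the transcripts. Of the UMIs of the 9 genes, 41.0% in BiDT and 33.9% in Ctrl lay in filtered cells of no lymphoid and no macrophage or monocyte gate. The NK gate takes only cells without a CD3 UMI. Outside it, 1915 BiDT and 816 Ctrl cells had at least 2 NK marker UMIs together with a CD3 UMI. Whether those were NK or T cells was not tested. The rule uses raw UMIs and so depends on depth, and the gated NK cells had medians of 3858 UMIs in BiDT and 4987 in Ctrl. Settings that allowed 1 CD3 UMI or gated on thinned counts are given below.

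**Figure D1:**
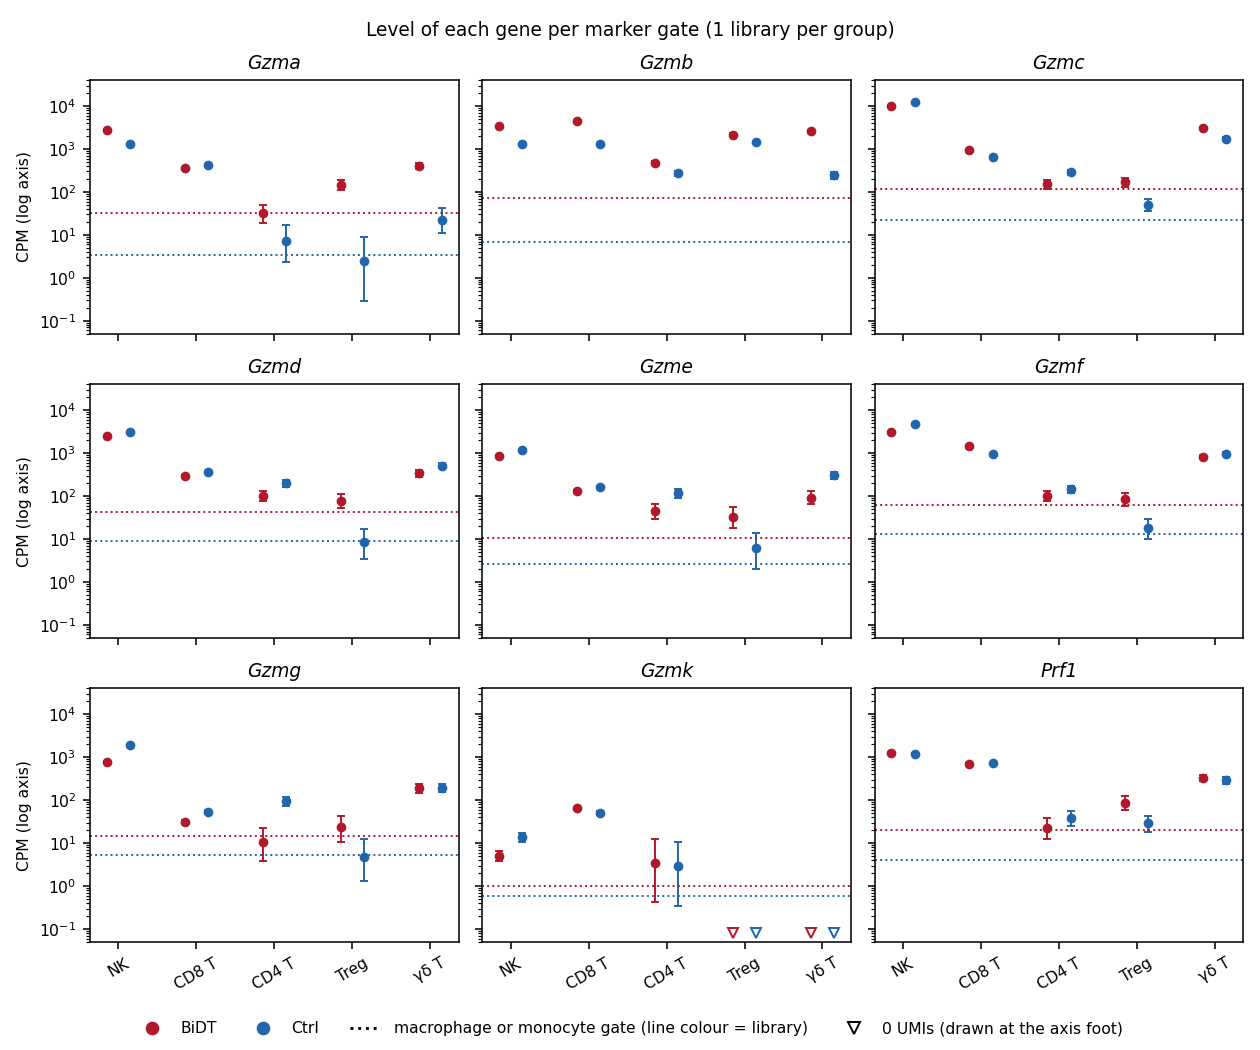
Level of each gene in CPM (log axis) in 5 lymphoid gates, BiDT left of Ctrl, with exact 95% Poisson intervals. Dotted lines give the macrophage or monocyte gate of each library, and open triangles mark 0 UMIs. Gzmb was higher in BiDT in every gate (in CD4 T cells not with gates set on thinned counts), while Prf1 of NK and CD8 T cells differed by at most 0.11 on the log2 scale.

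Gzmb, the main apoptosis-inducing granzyme, was higher in BiDT in all 5 gates, and most of all relative to Ctrl in gamma delta T cells. In CD4 T cells that direction did not hold in every setting, since the log2 ratio of 0.80 there was -0.12 with gates set on thinned counts. CD8 T cells held 4494 CPM in BiDT (exact 95% Poisson interval 4457 to 4532) and 1301 CPM in Ctrl (1276 to 1326), a ratio of 3.46 (log2 1.79). NK cells held 3423 CPM in BiDT (3389 to 3457) and 1345 CPM in Ctrl (1313 to 1378), a ratio of 2.54 (log2 1.35). Both major killer populations thus held more of it in BiDT. Gamma delta T cells held 2570 CPM in BiDT (2414 to 2735) and 242 CPM in Ctrl (198 to 293), a log2 ratio of 3.41 (3.12 to 3.71). Treg held 2157 CPM in BiDT (2014 to 2308) and 1488 CPM in Ctrl (1406 to 1573), a log2 ratio of 0.54. CD4 T cells were lowest in BiDT, with 471 CPM (416 to 531) against 271 CPM in Ctrl (234 to 313).

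The order of the gates for Gzmb was not the same in the 2 libraries. In BiDT it ran CD8 T, NK, gamma delta T, Treg and CD4 T, with no overlap between the intervals of neighbours. In Ctrl, Treg stood first, NK and CD8 T cells followed with overlapping intervals, and CD4 T and gamma delta T cells came last, again overlapping. Treg held 0.601% of all Gzmb UMIs of filtered cells in BiDT and 4.97% in Ctrl, while CD8 T cells held 39.5% and 41.5%. The gamma delta T gate also differed in its makeup. Il17a, the interleukin 17A gene, held 434 CPM there in BiDT and 2275 CPM in Ctrl, and Cd163l1, a marker of interleukin 17-type gamma delta T cells, 773 and 1851 CPM. Their part in the Gzmb difference was not tested.

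Depth differed between the libraries, so shares of cells were compared after every cell had been thinned at random to 1000 UMIs, which left out no gated cell. Gzmb was then detected in 77.5% of BiDT CD8 T cells (exact Clopper-Pearson 95% interval 76.0 to 79.0%) and 40.2% of Ctrl CD8 T cells (38.0 to 42.5%). Among NK cells the shares were 71.9% in BiDT (70.1 to 73.7%) and 39.0% in Ctrl (35.6 to 42.6%). Unthinned, they were 88.4% and 58.7% for CD8 T and 87.3% and 60.6% for NK cells, BiDT before Ctrl. More cells carried the transcript, and the typical cell carried more of it. The median CD8 T cell held 2 Gzmb UMIs of 1000 in BiDT and 0 in Ctrl, as did the median NK cell. Gamma delta T cells were positive in 53.7% in BiDT and 9.93% in Ctrl, and Treg in 61.9% (51.9 to 71.2%) and 55.6% (48.8 to 62.2%), whose intervals overlap. In the macrophage or monocyte gate the shares after thinning were 7.48% in BiDT and 0.729% in Ctrl. Unthinned, at median depths of 4244 UMIs in BiDT and 5892 UMIs in Ctrl, they were 27.9% and 4.62%.

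**Figure D2:**
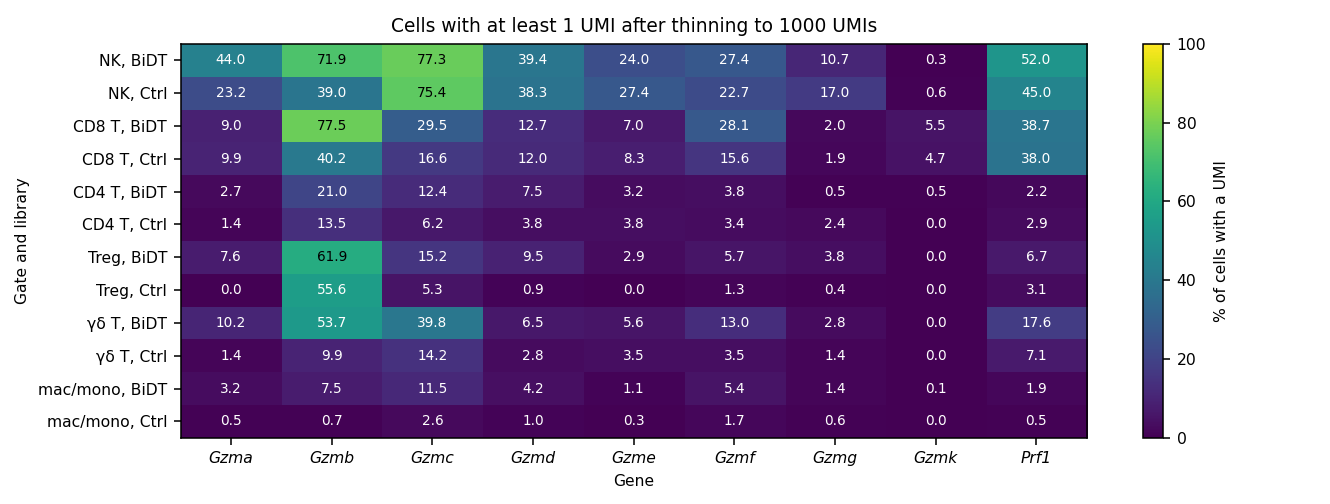
Percent of cells of a gate with at least 1 UMI of each gene after thinning to 1000 UMIs, with the BiDT row above the Ctrl row of the same gate. Gzmb is the column in which NK, CD8 T and gamma delta T rows differ most, and the rows of the macrophage or monocyte gate (mac/mono) show the free RNA background.

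Prf1, which encodes perforin, differed little between the libraries where it was abundant. NK cells held 1289 CPM in BiDT (1268 to 1309) and 1198 CPM in Ctrl (1167 to 1229), a log2 ratio of 0.11 (0.06 to 0.15). CD8 T cells held 711 CPM in BiDT (696 to 726) and 726 CPM in Ctrl (707 to 745), a log2 ratio of -0.03 (-0.08 to 0.02). The CD8 T interval includes equality. Gamma delta T cells came next, with 331 CPM in BiDT and 290 CPM in Ctrl, but 64.1% of the Ctrl UMIs lay in 1 cell. Without the cell richest in the 9 genes of each library, the log2 ratio of 0.19 there was 1.58. Treg held 87.4 CPM in BiDT (60.5 to 122) and 29.0 CPM in Ctrl (18.6 to 43.1), from 34 and 24 UMIs. With Ncr1-positive cells let into the T gates, the Treg log2 ratio of 1.59 became -0.18. CD4 T cells in Ctrl (38.9 CPM) overlapped with Treg, and in BiDT (23.0 CPM) lay at the macrophage or monocyte level of 19.8 CPM.

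Cells with both Gzmb and Prf1 transcripts were more frequent in BiDT. At 1000 UMIs both were detected in 41.8% of BiDT NK cells (39.8 to 43.8%) and 24.0% of Ctrl NK cells (21.0 to 27.1%). For CD8 T cells the shares were 32.6% in BiDT (31.0 to 34.3%) and 20.04% in Ctrl (18.3 to 21.9%). CD8 T cells with Prf1 and no Gzmb made up 6.09% in BiDT and 18.0% in Ctrl, and NK cells of that kind 10.3% and 21.0%. Gzmb without Prf1 was found in 44.9% of BiDT and 20.2% of Ctrl CD8 T cells. These classes share their reads with the levels above and are no independent evidence. In gamma delta T cells 11 of 108 BiDT cells and 1 of 141 Ctrl cells had both, and in the macrophage or monocyte gate 0.288% of BiDT and 0.0178% of Ctrl cells did.

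Gzma, the tryptase, split the killer populations. NK cells held 2852 CPM in BiDT (2821 to 2883) and 1343 CPM in Ctrl (1311 to 1376), a log2 ratio of 1.09. CD8 T cells held less, with 369 CPM in BiDT (358 to 380) and 429 CPM in Ctrl (415 to 444), a log2 ratio of -0.22. The ratio was therefore above 1 in NK and below 1 in CD8 T cells, and that difference between gates has no test. The CD8 T value rests on few cells. Without thinning, the 5 cells richest in Gzma held 20.1% of its UMIs among 2988 BiDT CD8 T cells. In Ctrl the 5 richest held 18.7% among 1876 CD8 T cells. The CD8 T log2 ratio of Gzma ranged from -0.36 to -0.061 over 15 alternative settings. The shares of CD8 T cells with Gzma overlapped after thinning, at 9.04% in BiDT (8.03 to 10.1%) and 9.86% in Ctrl (8.55 to 11.3%). Without thinning they ran the other way, at 17.7% in BiDT and 14.3% in Ctrl. NK cells carried 56.3% of all Gzma UMIs in BiDT and 46.0% in Ctrl. After thinning, 44.0% of BiDT and 23.2% of Ctrl NK cells held a Gzma UMI. The transcript was unevenly spread, with 58.4% of the thinned UMIs in the top 10% of BiDT NK cells and 84.4% in that of Ctrl NK cells. Gamma delta T cells held 398 CPM in BiDT (338 to 466) and 22.6 CPM in Ctrl (10.9 to 41.6), but 70 of the 155 BiDT UMIs lay in 1 cell and 85.8% in 5 of the 108 cells. Without the richest cell of each library in the 9 genes, the log2 ratio of 4.14 was 4.09, and with Ncr1-positive cells let into the T gates it was 2.32. In Treg it was 147 CPM in BiDT, from 57 UMIs of which 33 lay in 1 cell, against 2.41 CPM in Ctrl, from 2 UMIs, a log2 ratio of 5.92 with an interval from 4.01 to 9.005.

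Gzmk, the granzyme of memory-like CD8 T cells, was the rarest of the 9. CD8 T cells held 64.2 CPM in BiDT (59.8 to 68.9) and 50.6 CPM in Ctrl (45.8 to 55.8), a log2 ratio of 0.34, and carried 70.6% and 63.3% of its UMIs. NK cells held 4.96 CPM in BiDT (3.77 to 6.42) and 13.9 CPM in Ctrl (10.8 to 17.6), from 58 and 68 UMIs. Their log2 ratio of -1.48 was 0.68 when the gates were set on thinned counts. No UMI was found in Treg or gamma delta T cells, where a floor of 3 UMIs allows up to 7.71 CPM in BiDT and 3.62 CPM in Ctrl Treg, and up to 7.70 and 6.79 CPM in gamma delta T cells. Most CD8 T cells with Gzmk also held Gzmb. Of those with a Gzmk UMI after thinning, 82.8% in BiDT and 54.5% in Ctrl had a Gzmb UMI, near the shares of all CD8 T cells in the BiDT library and above them in Ctrl.

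Gzmc to Gzmg, the neighbours whose promoters are printed above, were as a sum the most abundant granzyme transcripts of NK cells in both libraries. They summed to 17569 CPM in BiDT NK cells (17493 to 17645) and 23722 CPM in Ctrl NK cells (23586 to 23859), a log2 ratio of -0.43. Gzmc alone took 10239 CPM in BiDT and 12678 CPM in Ctrl, which makes it the leading member of the family in NK cells. Neither Gzma nor Gzmb, the granzymes that were higher in BiDT NK cells, was the one that these cells held most of. The 4 other neighbours were lower in BiDT too. Gzmf held 3138 CPM in BiDT and 4818 CPM in Ctrl (log2 -0.62), but 13 of the 776 Ctrl cells held at least 50% of its UMIs. The share of NK cells with Gzmf ran the other way, at 27.4% in BiDT and 22.7% in Ctrl after thinning and 40.0% and 29.8% without it. Gzmd held 2525 CPM in BiDT and 3131 CPM in Ctrl (log2 -0.31), but was detected after thinning in 39.4% of BiDT and 38.3% of Ctrl NK cells. Gzme held 872 CPM in BiDT and 1162 CPM in Ctrl (log2 -0.41). Gzmg was furthest apart, with 795 CPM in BiDT (779 to 812) and 1933 CPM in Ctrl (1894 to 1973), a log2 ratio of -1.28. For CD8 T cells the same sum was 2877 CPM in BiDT (2847 to 2907) and 2190 CPM in Ctrl (2157 to 2222), a log2 ratio of 0.39.

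In CD8 T cells the neighbours differed in both directions. Gzmf led there, with 1477 CPM in BiDT (1455 to 1498) and 952 CPM in Ctrl (931 to 974), a log2 ratio of 0.63. Gzmc held 940 CPM in BiDT and 659 CPM in Ctrl (log2 0.51). By level, Gzmd, Gzme and Gzmg were lower in BiDT instead. Gzmd stood at 294 CPM in BiDT and 357 CPM in Ctrl (log2 -0.28), and Gzme at 134 and 167 CPM (log2 -0.31). Gzmg held 31.8 CPM in BiDT (28.7 to 35.1) and 54.4 CPM in Ctrl (49.4 to 59.8), but 5 Ctrl cells held at least 50% of its UMIs, and without the richest cell of each library its log2 ratio of -0.78 was -0.50. The last 300 bases of the Gzmd, Gzme, Gzmf and Gzmg transcripts were 85.02% to 88.2% identical to those of the nearest other granzyme in the mouse annotation, and 3.32% to 17.4% of their 60-base words also occur in another. Their values are therefore uncertain relative to each other. Gzmc and the other 4 members shared no such word.

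**Figure D3:**
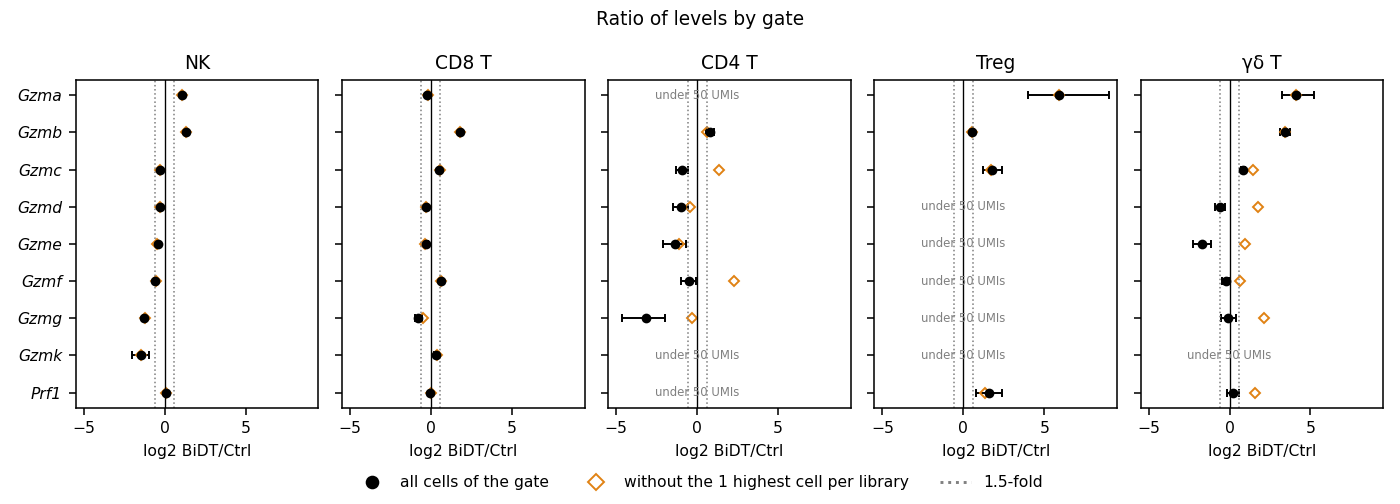
Log2 ratio of BiDT over Ctrl for members that reached 50 UMIs in the libraries together, with exact conditional binomial 95% intervals (black), and the same without the richest cell of each gate and library (orange diamonds). In NK and CD8 T cells most pairs of symbols lie close together, but Gzmg of CD8 T cells fell within 1.5 times without that cell. In CD4 T and gamma delta T cells single cells turned several of the neighbours Gzmc to Gzmg round.

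A minority of NK cells made most of the rarer neighbours. At 1000 UMIs, the top 10% of NK cells held 78.1% of Gzmf UMIs in BiDT and 83.4% in Ctrl, and 98.3% and 92.6% of Gzmg UMIs. Only 10.7% of BiDT and 17.0% of Ctrl NK cells held Gzmg at that depth, so its top shares partly follow from rarity. Gzmc was spread more evenly, with 32.6% in BiDT and 31.2% in Ctrl, and was detected in 77.3% and 75.4% of NK cells. In the most extreme NK cells the neighbours took 199 of 1000 UMIs in BiDT and 205 in Ctrl. Of the deposited Gzmg UMIs of NK cells, 13 of 2359 BiDT cells and 7 of 776 Ctrl cells held at least 50%. At least 2 of the 5 neighbours were detected together in 47.5% of BiDT NK cells (45.4 to 49.5%) and 46.1% of Ctrl NK cells (42.6 to 49.7%), whose intervals overlap. Among CD8 T cells the shares were 20.1% in BiDT (18.7 to 21.6%) and 14.6% in Ctrl (13.0 to 16.2%), and in the macrophage or monocyte gate 2.96% and 0.338%. Gzmc and Gzmf were detected together in CD8 T cells more often than the product of their single shares. In BiDT 13.9% held both and the product was 8.29%, and in Ctrl 8.21% held both and the product was 2.60%.

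**Figure D4:**
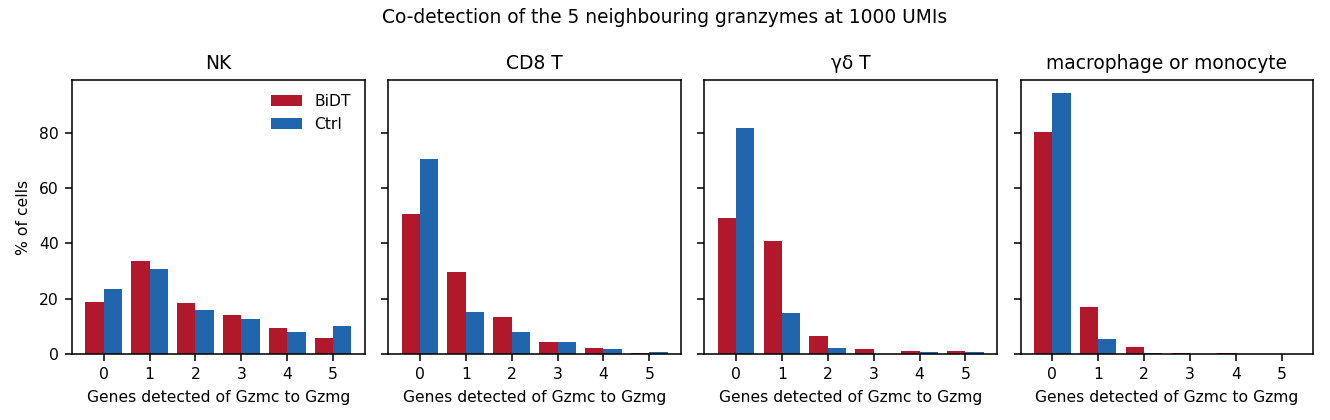
Percent of cells by the number of Gzmc, Gzmd, Gzme, Gzmf and Gzmg detected after thinning to 1000 UMIs, BiDT bars left of Ctrl bars. NK cells reach all 5 genes in both libraries, and most macrophages or monocytes hold none.

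Counted by the fixed rule of at least 1.5 times, with 50 or more UMIs in the libraries together, all 9 members could be measured in NK and CD8 T cells. In NK cells 2 were higher in BiDT (Gzma and Gzmb) and 3 lower (Gzmf, Gzmg and Gzmk), while of all 10628 genes measured there 13% were higher and 5.81% lower. Among CD8 T cells 2 were higher (Gzmb and Gzmf) and 1 lower (Gzmg), against 9.57% and 5.22% of 10974 genes. Gzmf passed the rule narrowly. Its log2 ratio ranged from -0.74 to -0.36 in NK and from 0.49 to 0.92 in CD8 T cells over 15 alternative settings, so that some settings ended both calls. The median log2 ratio of the 9 members was -0.31 in NK cells and -0.03 in CD8 T cells, where that of all measured genes was 0.08 and 0.04.

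In the 3 small gates the counts rest on few cells. Of 6 members measured in CD4 T cells, Gzmb was higher and Gzmc, Gzmd, Gzme and Gzmg were lower in BiDT, against 11.4% of genes higher and 8.67% lower. A single Ctrl CD4 T cell held 399 of the 582 UMIs of Gzmc to Gzmg in that gate. Without the richest cell of each library, the log2 ratio of Gzmc there was 1.34 instead of -0.94, and 3 members were higher and 1 lower. Of 4 members measured in Treg, Gzma, Gzmc and Prf1 were higher and none lower, against 11.9% and 10.1% of genes. Treg Gzmc, with 170 CPM in BiDT and 49.5 CPM in Ctrl, lay within 1.43 and 2.26 times the macrophage or monocyte level, and its log2 ratio of 1.78 was -0.96 with Ncr1-positive cells let into the T gates. Of 8 members measured in gamma delta T cells, Gzma, Gzmb and Gzmc were higher and Gzmd and Gzme lower, against 12.9% and 13.4% of genes. There too 1 Ctrl cell held 1053 of 1652 UMIs of Gzmc to Gzmg. Without the richest cell of each library the log2 ratio of Gzmd was 1.76 instead of -0.59 and that of Gzme 0.93 instead of -1.71, and 6 members were higher and 0 lower. Gamma delta T Gzmc, by contrast, was higher either way, with 3058 CPM in BiDT (2887 to 3237) and 1745 CPM in Ctrl (1624 to 1873), and was detected after thinning in 39.8% and 14.2% of cells.

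Within CD8 T cells, the higher Gzmb of BiDT was seen on both sides of every split by a marker. Cells with a UMI of Havcr2, the gene of TIM3, held 5685 CPM in BiDT and 1931 CPM in Ctrl, and cells without one 4120 and 1150 CPM. The log2 ratios were 1.56 with and 1.84 without Havcr2, and 1.83 with and 1.77 without Pdcd1, the gene of PD-1. Cycling cells, those with an Mki67 UMI, gave 1.82, and the others 1.79. Ly6c2, which marks activated CD8 T cells and is induced by interferon, was detected in 72.5% of BiDT and 21.1% of Ctrl CD8 T cells. Cells with Ly6c2 held 5083 CPM of Gzmb in BiDT and 1892 CPM in Ctrl, and cells without it 2595 and 1137 CPM, so that the log2 ratios within the classes were 1.43 and 1.19. Cells with Tcf7, the gene of a stem-like state, were few (36 in BiDT and 23 in Ctrl) and held 1004 CPM in BiDT and 200 CPM in Ctrl. Prf1 was highest in CD8 T cells with Havcr2, at 912 CPM in BiDT and 1093 CPM in Ctrl, against 647 and 638 CPM in those without. Gzma went the other way from Gzmb in Havcr2-positive cells, with 298 CPM in BiDT and 554 CPM in Ctrl.

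**Figure D5:**
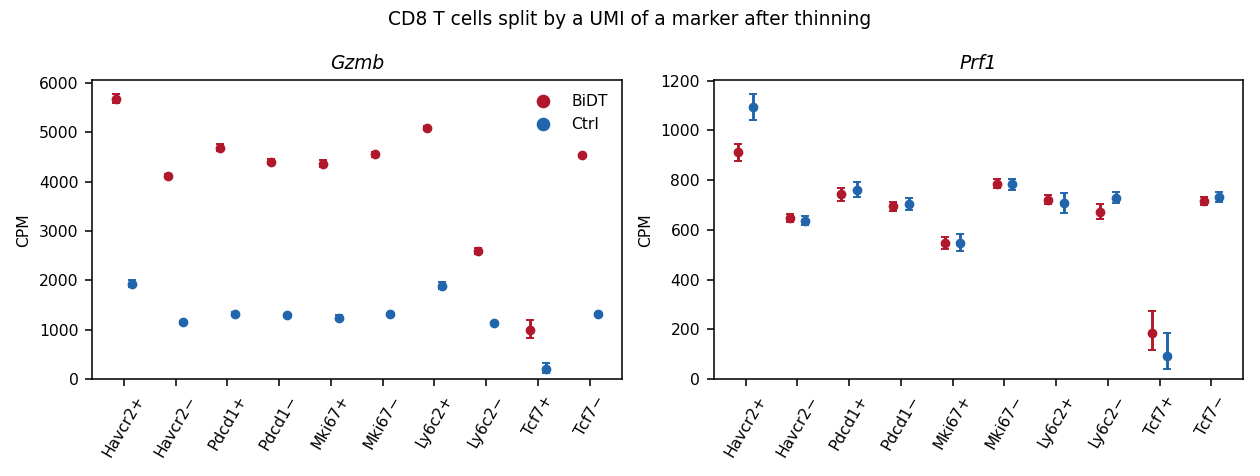
Gzmb and Prf1 in CPM with exact 95% Poisson intervals in CD8 T cells with (+) or without (−) a UMI of a marker after thinning, BiDT left of Ctrl. Gzmb of BiDT lies above Ctrl in all 10 classes, whereas Prf1 of both libraries lies close together except in Havcr2-positive cells, where Ctrl is higher, and in the few Tcf7-positive cells.

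NK cells of most classes had a similar ratio of Gzmb, while the other granzymes varied. The log2 ratio of Gzmb was 1.32 in cells with Eomes, a transcription factor of conventional NK cells, and 1.34 in those without. It was 1.33 with and 1.35 without Itga1, the gene of CD49a on tissue-type NK and innate lymphoid cells. The few NK cells with Itgam, the CD11b gene (90 in BiDT and 28 in Ctrl), were the exception, with a log2 ratio of 0.65. Gzma was higher in Eomes-positive NK cells of both libraries, at 4747 CPM in BiDT and 2602 CPM in Ctrl, than in Eomes-negative ones, at 2512 and 1169 CPM. Gzmc was higher where Itga1 was detected, at 13966 CPM in BiDT and 16403 CPM in Ctrl, than where it was not, at 9817 and 12056 CPM. Cycling NK cells differed from the rest in the neighbours. With Mki67, Gzmf held 2561 CPM in BiDT and 1229 CPM in Ctrl and Gzmg 465 and 200 CPM, whereas without Mki67 Gzmf held 3309 and 5466 CPM and Gzmg 893 and 2246 CPM. Only 80 Ctrl NK cells were Mki67-positive, and the richest Ctrl NK cell alone held 9.34% of all Gzmf UMIs of its gate.

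Genes that work with the granzymes differed less than Gzmb. Of 12 measured granule partners, among them loaders, activators and release factors, 0 were higher and 0 lower in CD8 T cells, where 9.57% of all measured genes were higher and 5.22% lower. In NK cells 1 was higher (Gzmm) and 1 lower (Cst7), near the 13% and 5.81% of all measured genes there. The outermost in NK cells were Cst7, an inhibitor of granzyme-activating cathepsins (214 CPM in BiDT and 358 CPM in Ctrl, log2 -0.74), and Ctsw, a cathepsin of cytotoxic cells (log2 -0.55), below, and Unc13d, a granule-priming factor (log2 0.34), and Gzmm, another granzyme, above. The Gzmm log2 ratio of 0.60 rests on 65 UMIs in BiDT and 18 in Ctrl, and its interval from -0.17 to 1.44 includes equality. Those in CD8 T cells were Ctsc, the activator of progranzymes (log2 -0.34), Cst7 (log2 -0.28), Rab27a, a granule-docking GTPase (log2 0.36), and Gzmm (log2 0.44, with an interval from -0.13 to 1.04). Of 5 inhibitors of the serpin B family, which guard killer cells against their own proteases, 0 were higher and 3 lower in BiDT CD8 T cells, against 9.57% and 5.22% of all measured genes. Serpinb9b held 17.6 CPM in BiDT and 46.7 CPM in Ctrl (log2 -1.41), and Serpinb6b 119 and 226 CPM (log2 -0.92). Serpinb1a lay near 10 CPM or below, as in macrophages. Serpinb9, the inhibitor of granzyme B, held 208 CPM in BiDT and 254 CPM in Ctrl (log2 -0.29), next to Serpinb6a (log2 -0.29). In NK cells 0 of the 5 were past 1.5 times in either direction, from Serpinb6a (log2 -0.43) and Serpinb6b (log2 -0.11) to Serpinb9b (log2 0.09) and Serpinb9 (log2 0.11).

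Other means of killing were counted in the same way. Ifng and Tnf, the cytokines, were higher in both gates and Fasl and Tnfsf10, the death ligands, were within 1.5 times, so that 2 of 4 were higher and 0 lower, against 13% and 5.81% of all measured genes in NK and 9.57% and 5.22% in CD8 T cells. Ifng of CD8 T cells held 718 CPM in BiDT and 423 CPM in Ctrl (log2 0.77), Tnf gave a log2 ratio of 0.89, Fasl 0.43 and Tnfsf10 0.17. In NK cells the log2 ratios were 0.91 for Ifng, 0.77 for Tnf, 0.44 for Fasl and -0.44 for Tnfsf10. Tnf was more abundant in macrophages than in either gate. Of 10 regulators, Tbx21, the T-bet gene, was higher in CD8 T cells (141 CPM in BiDT and 91.9 CPM in Ctrl, log2 0.62), followed by Prdm1 (log2 0.44), with Stat5a (log2 -0.39) and Il12rb2 (log2 -0.10) lowest. In NK cells Zeb2 (log2 0.70) and Prdm1 (log2 0.60), both more abundant in macrophages, were higher, and Stat5a (log2 -0.12) and Il2rb (log2 0.02) were lowest. No regulator was lower by the rule in either gate, and the 1 of 10 higher in CD8 T cells and 2 of 10 in NK cells stand against 9.57% and 13% of all measured genes. The named genes induced by type I interferon, Isg15, Ifit1, Ifit3 and Usp18, were higher in both gates. So were all 6 measured genes of their list, against 13% of all measured genes in NK and 9.57% in CD8 T cells. In CD8 T cells the log2 ratio was 4.01 for Isg15, 4.39 for Ifit3 and 5.08 for Usp18, and in NK cells it was 2.79 for Isg15, 3.35 for Ifit1 and 3.94 for Ifit3. Each of these named values exceeded the log2 ratio of Gzmb in the same gate. Isg15, Ifit1 and Ifit3 were more abundant in macrophages or monocytes than in either gate, in both libraries. In BiDT, Isg15 held 1852 CPM there, against 457 CPM in NK and 946 CPM in CD8 T cells. Usp18 of BiDT CD8 T cells went the other way, at 235 CPM against 178 CPM. The part of free RNA in these ratios was not tested.

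Over the 10 points that the 5 gates in 2 libraries form, the level of Gzmb, as log2(CPM + 1), was most alike that of Fkbp8 (Pearson r 0.98), Depdc1b (0.97) and Tuba1b (0.96) among 9358 genes with at least 200 UMIs. Gzma was most alike Fhl2 (0.94), Ugcg (0.93) and Otulin (0.93), and Prf1 most alike Lrrk1 (0.97), Arsb (0.95) and Tmem107 (0.94). For Gzmk they were Klrh1 (0.94), Wnt10b (0.92) and Ybx3 (0.91), and for the sum of Gzmc to Gzmg Stt3b (0.97), Parp8 (0.97) and Apobr (0.95). Between members, Gzmd and Gzme were closest (r 0.99), and Gzmb and Gzme least alike (r 0.03). The points share libraries, depth and gates, so these values describe the pattern of levels and nothing more.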

How the data were processed

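Each deposited file holds whole-number UMI counts by gene and barcode, which the authors left without normalization, per the file headers and values. Cell Ranger 7.1.0 and GRCm39 are named in the submitters' processing notes, and a 10x Genomics 3′ workflow in the labels' protocols. The barcodes have another form than Cell Ranger writes, so neither step is certain. Cells with fewer than 300 genes or 500 UMIs, or with more than 10% mitochondrial UMIs, were left out. Scrublet (scanpy 1.11.5, expected rate 5%) failed at its own thresholds, which marked 0 cells. A score of 0.15, chosen after the scores had been seen, was used instead and removed 2732 BiDT and 2168 Ctrl cells.

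Gates used raw UMIs. NK cells had no CD3 UMI and at least 2 of Ncr1, Klrb1c and Klre1. T cells had at least 2 CD3 UMIs and no Ncr1, split by Cd8a, Cd8b1, Cd4, Foxp3 and Trdc. All had at most 0.5% macrophage UMIs. Counts were summed per gate and library, given as CPM, and the log2 ratio (BiDT over Ctrl) has a conditional binomial interval, which is exact. Shares were thinned to 1000 UMIs. Named genes were the 9 members, the 2 highest and 2 lowest of each list in NK and CD8 T cells, and the 3 genes most alike; some items are not reported here. A few further list genes are named for their counts and were chosen after their values were seen. Members and lists were chosen with earlier results of these data known. Ratios and thinning were tested on simulated data. The alternatives cover filters, scaling, depth and gates. The tools were scipy 1.17.1, numpy 2.4.6, matplotlib 3.10.9 and Biopython 1.88 under Python 3.11.15.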

Additional observations from a re-analysis of the deposited data

Results flagged for a closer look

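Several genes stood on opposite sides of equality in different gates, with counting intervals that exclude it on both sides. With 1 library per group none of these differences between gates was tested, and each value below is a log2 ratio of BiDT over Ctrl. Gzma gave 1.09 in NK cells, 5.92 in Treg and 4.14 in gamma delta T cells, against -0.22 in CD8 T cells. The CD8 T value of Gzma rests on few cells, as described above. Gzmc gave 0.51 in CD8 T cells, 1.78 in Treg and 0.81 in gamma delta T cells, against -0.31 in NK and -0.94 in CD4 T cells. Gzmf gave 0.63 in CD8 T cells, against -0.62 in NK, -0.53 in CD4 T and -0.24 in gamma delta T cells. Gzmk gave 0.34 in CD8 T cells and -1.48 in NK cells. Without the richest cell of each library, CD4 T cells gave 1.34 for Gzmc and 2.26 for Gzmf, and gamma delta T cells 0.64 for Gzmf. With Ncr1-positive cells let into the T gates, Treg gave -0.96 for Gzmc, which lay at 1.43 times the macrophage or monocyte level in BiDT Treg. With gates set on thinned counts, NK cells gave 0.68 for Gzmk.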

How the results depend on the processing

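Settings were changed 1 at a time, 13 as planned and 2 chosen after seeing the data (macrophage level subtracted, and each gate without its richest cell). Of 36 log2 ratios, 21 were past 1.5 times. Of these 21, 12 kept their sign in every setting that gave a ratio and 9 did not, all but 1 of them in gates of at most 225 cells. Among the 12, Treg Gzma gave a ratio in only 13 of the 15 settings and CD4 T Gzmg in 14. A setting that left no count or level above 0 in a library gave none. No paired analysis was possible because each group is 1 library. Single libraries, pooled animals and, in the small gates, single cells limit every value.

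The log2 ratio of Gzmb in NK cells was 1.28 with TMM scaling, 1.43 with thinned counts, 1.39 with a stricter macrophage share (0.2%), 1.26 with 1 CD3 UMI allowed, 1.41 with gates on thinned counts, 1.43 without Malat1-rich cells and 1.46 with cells weighted equally. For CD8 T cells it was 1.75 with TMM, 1.83 with thinned counts, 1.84 with stricter gates, 1.86 with gates on thinned counts, 1.86 without Malat1-rich cells and 1.87 with equal weights. Prf1 in NK cells gave 0.040 with TMM, 0.18 with the stricter macrophage share, 0.15 with stricter gates, -0.0022 with 1 CD3 UMI allowed, 0.17 without Malat1-rich cells and 0.15 with equal weights. In CD8 T cells it gave 0.035 with gates on thinned counts and 0.025 without Malat1-rich cells.

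Signs turned as follows. With gates on thinned counts, CD4 T cells gave -0.12 for Gzmb, 1.43 for Gzmc, 1.07 for Gzmd and 0.81 for Gzme, gamma delta T cells 5.95 for Gzmd and 4.36 for Gzme, and NK cells 0.68 for Gzmk. With thinned counts, CD4 T Gzmc was 0.0037 and gamma delta T Gzmd 1.00. Equal weights gave 0.14 for CD4 T Gzmc, 1.02 for gamma delta T Gzmd and 0.091 for Gzme. Without the richest cell, CD4 T Gzmc was 1.34, gamma delta T Gzmd 1.76 and Gzme 0.93. With Ncr1 allowed in T gates, Treg gave -0.96 for Gzmc and -0.18 for Prf1. Except for the richest cell, the cause was not tested.

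Counts of members past 1.5 times varied. In NK cells 1 instead of 3 was lower with thinned counts. In CD8 T cells 1 instead of 2 was higher with Ncr1 allowed, and 0 instead of 1 lower without doublet removal, with a 5% mitochondrial filter, with thinned counts, with equal weights and without the richest cell. In CD4 T cells the higher count of 1 was 0 with thinned counts and equal weights, 2 with gates on thinned counts, 3 without the richest cell and 2 with at least 10 UMIs. The lower count of 4 was 0 with thinned counts, Ncr1 allowed or gates on thinned counts, and 1 without the richest cell. In Treg the higher count of 3 was 5 without doublet removal, 1 with thinned counts, 0 with gates on thinned counts and 7 with at least 10 UMIs, and 1 was lower with Ncr1 allowed. In gamma delta T cells the higher count of 3 was 6 with gates on thinned counts, 7 with equal weights and 6 without the richest cell. The lower count of 2 was 1 without doublet removal, with TMM, with totals free of the 9 genes, with a 1% macrophage share and with stricter gates, 0 with thinned counts, gates on thinned counts, equal weights and without the richest cell, and 4 without Malat1-rich cells.

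Shares of cells followed the depth, in the same order of libraries. Gzmb with Prf1 in NK cells was 24.8% in BiDT and 12.8% in Ctrl at 500 UMIs, 72.1% and 53.1% unthinned, and 19.5% and 10.3% with at least 2 UMIs of each. In CD8 T cells it was 19.2% and 9.81%, 59.7% and 44.8%, and 12.2% and 8.10%. At least 2 of Gzmc to Gzmg in NK cells gave 39.9% and 40.3%, 63.4% and 55.3%, and 35.2% and 35.4%, so that here the order did not hold. In CD8 T cells it gave 13.6% and 10.2%, 39.9% and 24.8%, and 9.37% and 7.41%.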

Other observations

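Other gates also held transcripts of these genes, reported here as values. In the dendritic cell gate Gzma stood at 551 CPM in BiDT (204 UMIs in 82 cells) and 4.05 CPM in Ctrl (7 UMIs in 264 cells), 17.4 and 1.16 times the macrophage or monocyte level. After thinning, only 4 of the 82 BiDT cells held a Gzma UMI (17.1% of them unthinned). In the B gate, with 53 BiDT and 31 Ctrl cells, Gzmc to Gzmg summed to 1643 CPM in BiDT and 44.5 CPM in Ctrl. Gzmc was detected there after thinning in 11 BiDT cells and 1 Ctrl cell. Neutrophils held 54.1 CPM of Gzma in BiDT and 125 CPM in Ctrl, detected after thinning in 16 of 314 and 5 of 237 cells. Whether the cells of these gates made the transcripts themselves was not tested. In the non-immune gate the 9 genes summed to 331 CPM in BiDT and 47.8 CPM in Ctrl, 0.882 and 0.715 times the macrophage or monocyte level. Over all filtered cells, whose NK gate made up 7.44% in BiDT and 2.55% in Ctrl, Gzmb held 1196 CPM in BiDT and 132 CPM in Ctrl, and Prf1 324 and 87.7 CPM.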
